A study of Rattus norvegicus with 24 samples.

Results

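Heat shock proteins are molecular chaperones that fold new proteins, hold partly unfolded ones and pass others on for degradation. Those described here are 10 genes chosen by name, 7 for proteins of the cytosol (Hspa8, Hspa4, Hsph1, Hsp90aa1, Hsp90ab1, Dnaja1 and Dnajb1) and 3 for proteins of mitochondria (Hspa9, Hspd1 and Hspe1). All 10 were found among the 17055 genes listed, and all 10 passed the filter on low counts that left 9994 genes for testing. In the cytosol, chaperones of the HSP70 class bind exposed stretches of a client protein in a cycle driven by ATP. J-domain proteins bring the client and start the cycle, and nucleotide exchange factors end it. HSP90 then takes over clients such as kinases and steroid receptors. In mitochondria, Hspa9 draws proteins in through the inner membrane, and the HSP60 cage with its HSP10 lid lets them fold. The transcription factor HSF1 raises many of these genes when unfolded proteins accumulate.

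RNA was measured in PC12 cells, which derive from a rat adrenal tumour of chromaffin cells, in 24 libraries that the labels place in 8 groups of 3 replicates. The labelled groups were a stable line with the empty pcDNA3 vector and a stable line expressing human α1ACT, each at 6 h, 24 h, 3 d and 10 d. α1ACT is a carboxy-terminal fragment from the calcium channel gene CACNA1A that acts as a transcription factor. Each arm was a single stable line at passages 18 to 20, so a line difference cannot be told apart from other differences between these lines, and the event from which time was counted is not given in the sources used here. The pcDNA3 plasmid drives its insert from a viral promoter that is active in most cells. The labels do not tie the 3 replicates of a group to separate cultures, and p-values then reflect only the spread among these samples, which may be technical.

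The names of the deposited count files go against the labels for 18 of the 24 libraries, and for 12 of these the line differs as well as the time. The replicate number matches in all 24. The file names keep the same 8 sets of libraries and rename them. Libraries labelled vector at 6 h, 24 h, 3 d and 10 d come from files named P 6H, P 3D, Q11 6H and Q11 3D. Those labelled α1ACT at these times come from files named P 24H, P 10D, Q11 24H and Q11 10D. The titles in the labels use P for every vector library and Q11 for every α1ACT library, so by file name the labelled line differences are time differences within a line. Groups below are those of the labels, written "labelled", and the reading by file name is given beside each comparison. Which of them is right is not known here.

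Libraries held 8679560 to 14486248 counts on genes. Levels are given as CPM, the counts of a gene scaled to the library's total after TMM, edgeR's trimmed mean of M-values. Transcript lengths were not used, so levels are compared only within a gene. Of the 12 markers of chromaffin cells 11 were listed, each above 3 counts in all 24 libraries, with summed group levels of 28121 and 28674 CPM in labelled α1ACT at 24 h and 10 d and 21054 to 23492 CPM in the other 6 groups. Summed epithelial markers (5 of 5 detected) were 537 to 1659 CPM. The fibroblast (0.765 to 6.997 CPM), immune (1.14 to 2.85 CPM) and Schwann or glial (7.32 to 14.2 CPM) lists stayed low, with Col1a2, Ptprc, Aif1, Cd79b and Sox10 at 0 in all libraries. In bulk RNA, fewer cells of a type and less RNA per cell cannot be told apart.

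HSF1 binds heat shock elements, inverted repeats of the unit GAA or its complement TTC. RefSeq promoter windows of assembly GRCr8, from 250 bases before to 50 after each start site, were found for 9 of the 10 genes. GAANNTTCNNGAA, an element of 3 units searched on both strands, was in the windows of 5 of the 9 genes (Hspa8, Hsph1, Dnaja1, Hspd1 and Hspe1) and in 0.798% of all 33469 windows. The shorter GAANNTTC was in 7 of the 9 (all but Hspa4 and Hsp90ab1) against 8.59% of all windows, and TTCNNGAA in 6 of the 9 against 8.77%. Both overlap the longer element. CCAAT was in 4 of the 9 against 37.5%. The stretches below are shown because they hold the longer element upstream of the start in 4 of the genes, with the bases of the element in capitals. Dnaja1 has its element after the start. Hspa8 has another match of the longer element at -213 to -201 from its start site, which is not shown. Hspd1 and Hspe1 lie head to head with 289 bases between their start sites. Their lines therefore show the same 2 overlapping matches of the element on opposite strands.
Hspa8, chr8:50080439-50080491, plus strand: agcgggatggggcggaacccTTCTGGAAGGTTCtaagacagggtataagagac
Hsph1, chr12:10427312-10427364, plus strand: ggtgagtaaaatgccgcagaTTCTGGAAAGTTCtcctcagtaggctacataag
Hspe1, chr9:64084242-64084299, plus strand: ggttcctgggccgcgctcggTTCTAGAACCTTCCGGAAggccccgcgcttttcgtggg
Hspd1, chr9:64084242-64084287, minus strand: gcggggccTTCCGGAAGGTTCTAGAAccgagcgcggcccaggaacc
A match of letters is a description of these windows and not a measured site.

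The 10 genes did not move as a block. In the libraries labelled 24 h and 10 d, Hspa9 was 1.82-fold higher than in those labelled 6 h and 3 d and Hsp90aa1 1.61-fold lower, as means over both lines. Hsph1 went opposite ways in the labelled lines, rising in vector and falling in α1ACT. Hsp90ab1 and Hspd1 held nearly the same level throughout, with group means within 1.20-fold and 1.118-fold. The other 6 genes spanned 1.36-fold (Hspe1) to 1.64-fold (Hsph1) between their highest and lowest groups. By file name, 24 h and 10 d against 6 h and 3 d reads as 3 d and 10 d against 6 h and 24 h in both lines.

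**Figure D1:**
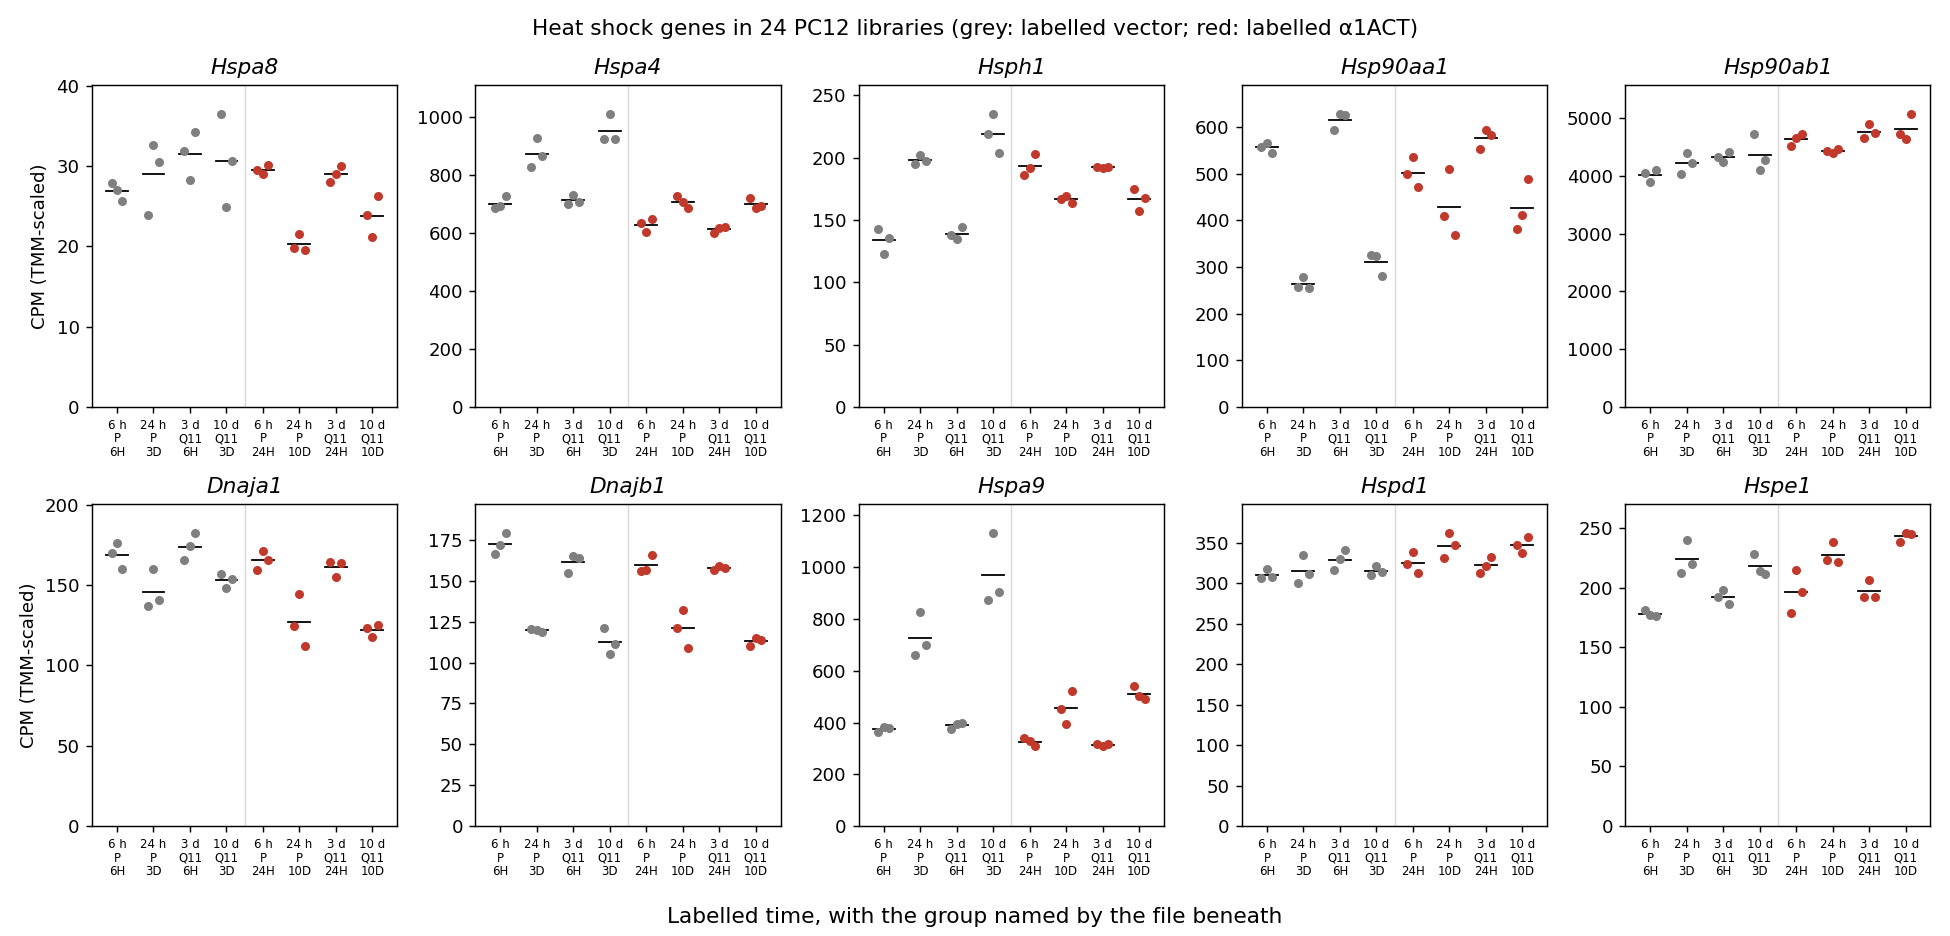
Level of each of the 10 heat shock genes in the 24 libraries, in CPM from 0 on linear axes, by labelled group (grey vector, red α1ACT) with the group named by the file beneath. Points are libraries and bars group means (n = 3). In the libraries labelled vector 24 h and 10 d Hspa9 stands above all other libraries and Hsp90aa1 below all other libraries.

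Hspa9 encodes mortalin, the mitochondrial HSP70 at the heart of the import motor. In the labelled vector line its level was 365, 385 and 379 CPM at 6 h, 660, 827 and 698 at 24 h, 373, 395 and 399 at 3 d, and 872, 1130 and 905 at 10 d. In the labelled α1ACT line it was 341, 329 and 308 CPM at 6 h, 452, 394 and 522 at 24 h, 318, 311 and 315 at 3 d, and 540, 501 and 490 at 10 d. All 6 libraries labelled vector at 24 h or 10 d lay above the other 18. The 6 libraries labelled α1ACT at 6 h or 3 d were the lowest. Group means ran from 315 ± 3.42 (SD, n = 3) to 969 ± 141 CPM, a 3.08-fold span, the widest of the 10 genes. Of the 7 neighbouring pairs in the order of group means, 4 overlapped.

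In the labelled vector line Hspa9 was 0.95 ± 0.09 higher on the log2 scale (± SE) at 24 h than at 6 h by edgeR's quasi-likelihood F-test (adjusted p = 1.07e-09). Between 3 d and 10 d the difference was 1.32 ± 0.09, or 2.49-fold (adjusted p = 2.46e-12). The labelled α1ACT line gave 0.48 ± 0.09 and 0.70 ± 0.09 for the same steps, both called at an adjusted p under 0.05. The line difference (α1ACT minus vector) was -0.67 ± 0.09 at 24 h, -0.30 ± 0.09 at 3 d and -0.92 ± 0.09 at 10 d. At 6 h it was -0.21 ± 0.09 with an adjusted p of 0.0669, which did not pass, although the libraries did not overlap.

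The other mitochondrial chaperones changed less. Hspe1, the HSP10 lid, was 181, 177 and 176 CPM in the libraries labelled vector 6 h and 192, 198 and 186 at 3 d. It reached 212, 240 and 220 at 24 h and 228, 214 and 211 at 10 d. The labelled α1ACT line ran from 179, 215 and 197 at 6 h and 192, 206 and 192 at 3 d to 223, 238 and 222 at 24 h and 238, 245 and 245 at 10 d. The libraries labelled 24 h and 10 d lay above those labelled 6 h and 3 d, apart from α1ACT 6 h replicate 2, whose level fell among theirs. Averaged over both lines the difference was 0.26 ± 0.03 (edgeR adjusted p = 1.03e-08). Hspd1, the HSP60 cage, ranged only from 310 ± 6.05 to 347 ± 10.1 CPM across group means (n = 3), with all 7 neighbouring pairs overlapping, and no step in time passed the test. It was 0.14 ± 0.05 higher in labelled α1ACT than in vector at both 24 h and 10 d.

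Hsp90aa1 and Hsp90ab1 encode the cytosolic HSP90 pair, of which the α form is the more readily induced by heat and the β form the more constant. Hsp90aa1 in the labelled vector line was 557, 567 and 545 CPM at 6 h and 595, 628 and 627 at 3 d, but 257, 278 and 255 at 24 h and 327, 324 and 281 at 10 d. The labelled α1ACT line had 499, 536 and 472 CPM at 6 h, 408, 511 and 368 at 24 h, 553, 593 and 584 at 3 d, and 381, 413 and 490 at 10 d. The 6 libraries labelled vector at 24 h and 10 d were the lowest of the 24. In labelled α1ACT the libraries at 24 h overlapped those at 6 h. Group means ran from 263 ± 13.1 to 616 ± 18.9 CPM (n = 3), a 2.34-fold span.

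The fall of Hsp90aa1 in labelled vector was -1.08 ± 0.09 from 6 h to 24 h and -0.99 ± 0.09 from 3 d to 10 d on the log2 scale (edgeR adjusted p = 1.01e-10 and 4.17e-10). In labelled α1ACT it was -0.43 ± 0.09 from 3 d to 10 d and -0.23 ± 0.09 from 6 h to 24 h. The last of these had an edgeR adjusted p of 0.0378 and was lost without α1ACT 6 h replicate 1 or 2 or α1ACT 24 h replicate 1 or 3 (adjusted p 0.104, 0.125, 0.115 and 0.256). Hsp90aa1 was higher in labelled α1ACT than in vector by 0.70 ± 0.09 at 24 h and 0.46 ± 0.09 at 10 d, and the line differences at 6 h and 3 d were not called. With only the 6 libraries labelled 6 h in the fit, that at 6 h passed at -0.14 (edgeR adjusted p = 0.0357). Hsp90ab1 had group means of 4017 ± 102 to 4815 ± 226 CPM (n = 3), with 6 of the 7 neighbouring pairs overlapping. It was higher in labelled α1ACT by 0.14 ± 0.03 as the mean of the 4 times (edgeR adjusted p = 2.60e-05), with means of 4665 against 4234 CPM. Neither line showed a joint effect of time on Hsp90ab1 that passed (adjusted p = 0.123 in vector and 0.164 in α1ACT).

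Hsph1 encodes HSP110, an HSP70 relative that acts as a nucleotide exchange factor and helps to take aggregates apart. In the labelled vector line it was 143, 122 and 136 CPM at 6 h, 194, 202 and 197 at 24 h, 138, 135 and 144 at 3 d, and 219, 235 and 203 at 10 d. In labelled α1ACT it was 186, 192 and 203 CPM at 6 h, 167, 169 and 163 at 24 h, 193, 192 and 192 at 3 d, and 175, 157 and 168 at 10 d. The vector libraries were the lower at 6 h and 3 d and the higher at 24 h and 10 d, without overlap between the lines at any of the 4 times. Hsph1 was accordingly higher in labelled α1ACT by 0.54 ± 0.06 at 6 h and 0.47 ± 0.06 at 3 d, and lower by -0.25 ± 0.06 at 24 h and -0.39 ± 0.06 at 10 d, all called. The test of line by time gave an edgeR adjusted p of 4.90e-11, the smallest of the 10 genes.

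Hspa4, another member of the HSP110 class, was 686, 692 and 727 CPM in labelled vector at 6 h, 830, 927 and 867 at 24 h, 700, 731 and 709 at 3 d, and 924, 1011 and 924 at 10 d. In labelled α1ACT it was 635, 605 and 649 CPM at 6 h, 727, 707 and 686 at 24 h, 600, 618 and 622 at 3 d, and 722, 687 and 693 at 10 d. Vector libraries lay above α1ACT libraries at each of the 4 times, and both lines were higher at 24 h and 10 d. The rise from 6 h to 24 h was 0.32 ± 0.05 in vector and 0.17 ± 0.05 in α1ACT, and that from 3 d to 10 d 0.42 ± 0.05 and 0.19 ± 0.05. Without α1ACT 6 h replicate 2 the edgeR adjusted p of the rise in α1ACT from 6 h to 24 h was 0.0546.

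Hspa8 encodes HSC70, the constitutive HSP70 of the cytosol that drives chaperone cycles, clathrin uncoating and chaperone-mediated autophagy. Its counts were the lowest of the 10 genes, 200 to 467 per library, and RefSeq names 33 pseudogenes after it. Reads left uncounted because they aligned to several places numbered 73.7 to 103 per 100 of the other alignments, so counts of Hspa8 are uncertain. Labelled vector gave 27.9, 27.0 and 25.7 CPM at 6 h, 23.9, 32.7 and 30.5 at 24 h, 31.9, 28.3 and 34.3 at 3 d, and 36.5, 24.9 and 30.7 at 10 d. Labelled α1ACT gave 29.5, 29.1 and 30.1 CPM at 6 h, 19.8, 21.5 and 19.5 at 24 h, 28.0, 29.1 and 30.0 at 3 d, and 23.9, 21.2 and 26.3 at 10 d. Vector showed no effect of time that passed (joint adjusted p = 0.252), although its 6 h libraries lay below those at 3 d. In labelled α1ACT the 24 h libraries lay below those at 6 h, by -0.55 ± 0.12 on the log2 scale (edgeR adjusted p = 0.000490). The groups with the most such reads, α1ACT at 24 h (94.1 per 100) and 10 d (99.5 per 100), against 81.5 to 88.3 in the other 6, were those with the lowest Hspa8, and the part of this in the result was not tested. RefSeq also names pseudogenes after Hsp90ab1 (23), Hspd1 (20), Hsp90aa1 (16), Dnaja1 (4), Hspa9 (2) and Hspe1 (1), and how the authors' counting treated such copies is not given in the sources used here.

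Dnaja1 and Dnajb1 are J-domain proteins that deliver clients to cytosolic HSP70, and Dnajb1 is a classic heat-induced HSP40. Dnajb1 in labelled vector was 166, 172 and 179 CPM at 6 h, 121, 120 and 119 at 24 h, 155, 165 and 164 at 3 d, and 121, 105 and 111 at 10 d. In labelled α1ACT it was 156, 157 and 166 CPM at 6 h, 121, 132 and 109 at 24 h, 157, 159 and 158 at 3 d, and 110, 115 and 114 at 10 d. Every library labelled 24 h or 10 d lay below every library labelled 6 h or 3 d, which no other gene of the 10 showed. This comparison called 71.0% of all genes tested, 36.1% lower, and the share whose libraries separated in this way was not counted. The mean difference over both lines was -0.48 ± 0.03 (edgeR adjusted p = 7.32e-14). Dnajb1 was the only gene of the 10 with no called line difference at any labelled time or as their mean (adjusted p 0.117 to 0.976). Its line difference had a 95% interval of -0.12 to 0.12 on the log2 scale at 10 d. At 6 h the interval was -0.23 to 0.005, and the libraries of the 2 lines did not overlap.

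Dnaja1 had group means of 169 ± 8.11 CPM at 6 h and 174 ± 8.26 at 3 d in labelled vector, against 146 ± 12.4 at 24 h and 153 ± 4.32 at 10 d (n = 3). In labelled α1ACT the means were 166 ± 5.87 and 161 ± 5.24 against 127 ± 16.4 and 122 ± 3.80 CPM. All 7 neighbouring pairs in the order of means overlapped. The fall from 6 h to 24 h was -0.21 ± 0.07 in vector and -0.38 ± 0.07 in α1ACT, and from 3 d to 10 d -0.19 ± 0.07 and -0.40 ± 0.07, all called by edgeR. The fall in vector from 3 d to 10 d did not pass without vector 3 d replicate 3 (adjusted p = 0.0780) or vector 10 d replicate 2 (0.0566).

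The line comparisons ask which genes differ between labelled α1ACT and vector at each time. At 6 h, 4 of the 10 genes were called where 41.6% of all 9994 genes tested were. Of these 3 were higher (Hsph1, Hsp90ab1 by 0.21 ± 0.05 and Hspe1 by 0.14 ± 0.06), against 20.5% of all genes, and Hspa4 was lower by -0.16 ± 0.05, against 21.2%. Hspe1 passed at an edgeR adjusted p of 0.0466, with overlapping libraries, and was lost without vector 6 h replicate 2 or 3 or α1ACT 6 h replicate 2 or 3 (adjusted p 0.0843, 0.0796, 0.247 and 0.0686). Hspa4 was lost without vector 6 h replicate 3 (0.0765) or α1ACT 6 h replicate 2 (0.0770), and without either of these libraries the count was 2. At 3 d, 4 genes were called (39.4% of all genes), Hsph1 and Hsp90ab1 higher (19.9%) and Hspa9 and Hspa4 lower (19.4%). The difference of Hsp90ab1 there, 0.14 ± 0.05, did not pass without vector 3 d replicate 1 or 2 or α1ACT 3 d replicate 2 or 3 (adjusted p 0.0931, 0.108, 0.109 and 0.0558). By file name these comparisons read as 24 h against 6 h within the lines named P and Q11.

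At 24 h, 7 of the 10 genes were called (55.5% of all genes). Hsp90aa1 and Hspd1 were higher in labelled α1ACT, as were 26.6% of all genes, and Hspa9, Hspa8 (-0.52 ± 0.12), Hspa4 (-0.31 ± 0.05), Hsph1 and Dnaja1 (-0.20 ± 0.07) were lower, as were 28.8%. The calls of Dnaja1 and Hspd1 rested on single libraries. Dnaja1 was lost without vector 24 h replicate 2 or α1ACT 24 h replicate 1 or 3 (edgeR adjusted p 0.125, 0.0505 and 0.152), and Hspd1 without vector 24 h replicate 1 or α1ACT 24 h replicate 2 (0.0821 and 0.0946). At 10 d, 9 genes were called (58.9%), with Hsp90aa1, Hsp90ab1 (0.14 ± 0.05), Hspd1 and Hspe1 (0.16 ± 0.06) higher (29.5%) and Hspa9, Hspa4 (-0.44 ± 0.05), Hsph1, Hspa8 (-0.37 ± 0.12) and Dnaja1 (-0.33 ± 0.07) lower (29.4%). The summed chromaffin markers moved with these groups, at 28121 and 28674 CPM in labelled α1ACT at 24 h and 10 d against 22054 and 21054 CPM in vector, and their part in these differences was not tested. By file name these read as 10 d against 3 d within P and within Q11.

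The smaller calls at 10 d also turned on single libraries. Hsp90ab1 was lost without vector 10 d replicate 2 or 3 or α1ACT 10 d replicate 3 (edgeR adjusted p 0.120, 0.0741 and 0.119). Hspe1 was lost without vector 10 d replicate 2 or 3 or α1ACT 10 d replicate 2 or 3 (0.0576, 0.0809, 0.0673 and 0.0507). Hspd1 was lost without vector 10 d replicate 1 or α1ACT 10 d replicate 3 (0.0526 and 0.0576), and Hspa8 without vector 10 d replicate 1 (0.0830). As the mean of the 4 times 9 of the 10 genes were called (66.3% of all genes), 5 higher (33.6%) and 4 lower (32.7%). The largest of these mean differences were Hspa9 at -0.53 ± 0.04, Hspa4 at -0.28 ± 0.02 and Hsp90aa1 at 0.23 ± 0.04. The median of the 10 was 0.02, beside 0.01 over all genes tested.

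**Figure D2:**
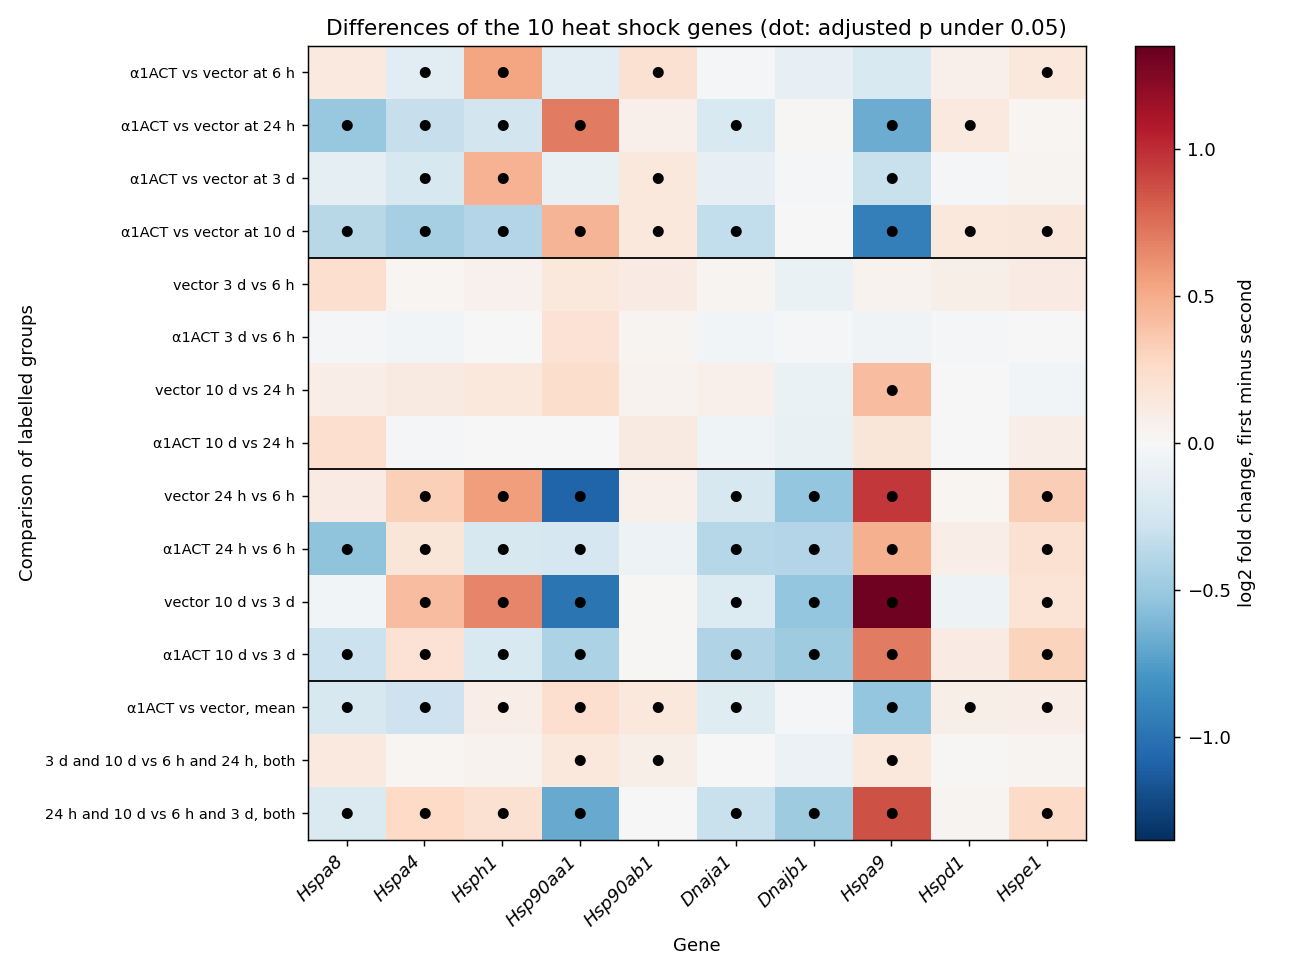
Log2 fold change of the 10 heat shock genes in 15 comparisons of labelled groups (first minus second, red higher, blue lower), with a dot where the edgeR adjusted p was under 0.05. Rows compare lines at each time, 3 d with 6 h and 10 d with 24 h, 24 h with 6 h and 10 d with 3 d, and pooled means; Hspa9 and Hsp90aa1 give the strongest colours, and the rows of 3 d against 6 h hold no dot.

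Steps in labelled time fell into comparisons with few calls and comparisons with many. From 6 h to 3 d no gene of the 10 was called by edgeR in vector (1.47% of all genes) or in α1ACT (1.06%), and DESeq2 called none either. A single gene had an unadjusted p under 0.05 in each, Hsp90ab1 in vector (4333 against 4017 CPM) and Hsp90aa1 in α1ACT (577 against 502 CPM). From 24 h to 10 d in α1ACT no gene was called by edgeR or DESeq2 (4.62% of all genes), and 1, Hsp90ab1 (4815 against 4436 CPM), had an unadjusted p under 0.05. In vector this step had 1 call (7.44%), Hspa9, which was 0.41 ± 0.09 higher at 10 d (edgeR adjusted p = 0.00483). Without vector 10 d replicate 2, at 1130 CPM the highest library, it did not pass (adjusted p = 0.05001). The count was 2 without vector 24 h replicate 2, which added Hspa4 (0.0327), or without vector 10 d replicate 3, which added Hsph1 (0.0386). By file name these 4 comparisons set Q11 against P at 6 h, 24 h, 10 d and 3 d in the order given here.

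Within labelled vector, 24 h against 6 h called 7 of the 10 genes (61.5% of all genes) and 10 d against 3 d 7 (64.2%), in each case Hspa4, Hsph1, Hspa9 and Hspe1 higher and Hsp90aa1, Dnaja1 and Dnajb1 lower. Hspe1 was 0.33 ± 0.06 and 0.18 ± 0.06 higher, and the second was lost without vector 10 d replicate 1 (edgeR adjusted p = 0.0593). Within labelled α1ACT the same steps called 8 (44.1%) and 8 (44.6%), with Hspa4, Hspa9 and Hspe1 higher and Hspa8, Hsph1, Hsp90aa1, Dnaja1 and Dnajb1 lower. Hsph1 fell by 0.22 and 0.21 on the log2 scale in α1ACT and rose by 0.57 and 0.66 in vector. The fall of Hspa8 from 3 d to 10 d, -0.29 ± 0.12 at an adjusted p of 0.0490, was lost without α1ACT 3 d replicate 1, 2 or 3 or α1ACT 10 d replicate 1 or 2 (0.0569, 0.0831, 0.0968, 0.0958 and 0.207). By file name the steps in vector read as 3 d against 6 h, and those in α1ACT as 10 d against 24 h, within P and then within Q11.

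Pooled over both lines, 24 h and 10 d against 6 h and 3 d called 8 of the 10 genes (71.0% of all genes). Hspa9 (0.86 ± 0.04), Hspa4 (0.27 ± 0.02), Hspe1 (0.26 ± 0.03) and Hsph1 (0.20 ± 0.03) were higher, beside 34.9% of all genes. Hsp90aa1 (-0.68 ± 0.04), Dnajb1 (-0.48 ± 0.03), Dnaja1 (-0.30 ± 0.03) and Hspa8 (-0.19 ± 0.06) were lower, beside 36.1%. The pooled value of Hsph1 averages a rise in labelled vector and a fall in labelled α1ACT. Within the lines, Hspa8 was called lower only in labelled α1ACT. The median of the 10 was 0.02, and that of all genes tested 0.00. The share of reads outside genes also moved with these groups, at group means of 48.7% to 49.9% in those labelled 6 h and 3 d and 50.4% to 52.5% in those labelled 24 h and 10 d. Summed epithelial markers were 1029 to 1659 CPM in the former and 537 to 751 CPM in the latter. The part of either in these differences was not tested.

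Pooling 3 d with 10 d against 6 h with 24 h, which by file name is Q11 against P over all 4 times, gave 3 called genes (15.6% of all genes). These were Hspa9 (0.14 ± 0.04, edgeR adjusted p = 0.0295), Hsp90aa1 (0.14 ± 0.04, 0.0263) and Hsp90ab1 (0.08 ± 0.03, 0.0319), and all were small. The libraries overlapped in each. Without vector 24 h replicate 3 the count was 0, and without α1ACT 6 h replicate 3, vector 24 h replicate 1, vector 3 d replicate 3 or α1ACT 10 d replicate 3 it was 1. For Hsp90ab1 the call was also lost without vector 6 h replicate 2, α1ACT 6 h replicate 1, vector 3 d replicate 1, α1ACT 3 d replicate 2 or vector 10 d replicate 1 (adjusted p 0.0598, 0.0591, 0.0503, 0.0588 and 0.0635). For Hspa9 it was also lost without α1ACT 24 h replicate 2, α1ACT 3 d replicate 1, vector 10 d replicate 2 or α1ACT 10 d replicate 1 (0.0574, 0.0517, 0.0505 and 0.0596), and for Hsp90aa1 without vector 10 d replicate 1 (0.0573).

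Any difference among the 4 labelled times was called for 7 genes in vector (71.7% of all genes) and 8 in α1ACT (55.3%). Hsp90ab1 and Hspd1 were called in neither line, and Hspa8 only in α1ACT. Whether the line difference itself varied over the 4 labelled times was called for 5 genes (57.7% of all genes), Hsph1, Hsp90aa1, Hspa9, Hspa4 and Hspa8. For Hspa8 the line difference was 29.6 against 26.9 CPM at 6 h and 20.3 against 29.0 at 24 h. Dnaja1 had an edgeR adjusted p of 0.0537 for this test.

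**Figure D3:**
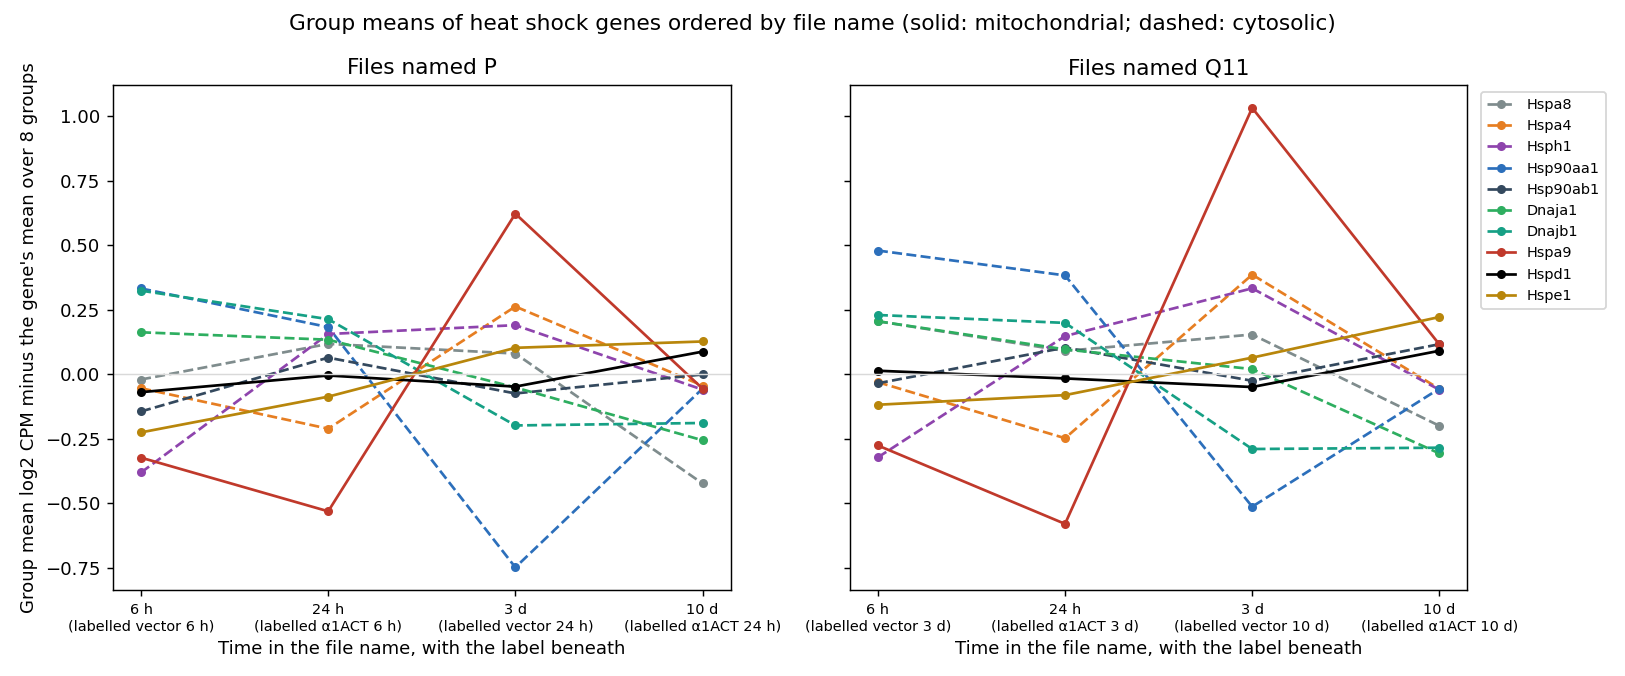
Group means of the 10 heat shock genes as log2 CPM minus the mean of that gene over the 8 groups, ordered by the time in the file name, for files named P and Q11 (labelled group beneath each time). Solid lines are mitochondrial and dashed lines cytosolic genes; Hspa9 has its highest and Hsp90aa1 its lowest group mean at 3 d within each panel.

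Companion genes show what else of the chaperone system moved in the pooled comparison of labelled 24 h and 10 d against 6 h and 3 d, where the median of all genes tested was 0.00. In this comparison 34.9% of all genes were called higher and 36.1% lower, 71.0% together. The counts of the lists are to be read against these shares. The values are means over both lines unless a line is named, and the lines did not move alike in every list. Among 16 other mitochondrial chaperones and proteases tested, 8 were higher and 4 lower, with a median of 0.07, a share of calls near that of all genes. Lonp1, the Lon protease of the matrix, was 1.80-fold higher (443 against 232 CPM). It was 541 ± 52.9 and 644 ± 23.4 CPM (SD, n = 3) in labelled vector at 24 h and 10 d and 218 to 303 CPM in the other 6 groups. Dnaja3, the J-domain partner of Hspa9, rose by 0.48 ± 0.03, and Htra2, a protease between the membranes, by 0.43 ± 0.03. Spg7, of the inner membrane protease, fell by 0.25 ± 0.03. Of 17 genes of mitochondrial import, 7 were higher, among them Timm10 at 0.51 ± 0.04, and 5 lower, among them Timm17a at -0.47 ± 0.03, again near the shares of all genes. In labelled vector the import medians were -0.10 and -0.12 for 24 h against 6 h and 10 d against 3 d. In labelled α1ACT they were 0.11 and 0.13. Those of the mitochondrial chaperones and proteases were -0.0035 and 0.03 in labelled vector and 0.20 and 0.21 in labelled α1ACT.

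Another 13 HSP70, HSP110 and exchange factor genes were tested, of which 3 were higher and 6 lower (median -0.07), beside 34.9% and 36.1% of all genes. Their medians for 24 h against 6 h and 10 d against 3 d were -0.32 and -0.29 in labelled vector. In labelled α1ACT they were 0.04 and 0.03. Those higher were Bag4 (0.28 ± 0.03), Hspa13 (0.17 ± 0.03) and Bag5 (0.10 ± 0.02). Bag3, a heat-induced exchange factor that routes clients to autophagy, was -0.78 ± 0.06 lower, and Bag6 -0.68 ± 0.03. Bag3 was also lower in labelled α1ACT than in vector by -0.76 ± 0.06 as the mean of the 4 times. The HSP70 genes Hspa1a, Hspa1l and Hspa1b had low counts. Hspa1a, a heat-induced HSP70, had 2 counts over all 24 libraries and was not tested, and Hspa1l had 0 to 8 per library and was not tested. Hspa1b, also heat-induced, had 4 to 60 counts per library and was lower by -1.22 ± 0.14. It is named here after its values were seen, since it lay under the 5 CPM required for naming. Whether reads of Hspa1a, Hspa1b and Hspa1l were among those left uncounted because they aligned to several places was not tested.

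Of the 8 tested heat shock factors and small heat shock proteins, 3 were higher and 2 lower (median 0.06), where 34.9% of all genes were higher and 36.1% lower. Hspb1, the HSP27 chaperone that holds unfolded proteins, fell to 63.4 from 138 CPM, a 2.24-fold difference, and Hspb6 by 0.61 ± 0.05 on the log2 scale. Hsf4 rose by 0.47 ± 0.06. Other J-domain genes split into 8 higher and 5 lower of 19 tested (median 0.04). Dnajc6, the auxilin that brings Hspa8 to clathrin coats, was 0.86 ± 0.04 higher, and Dnajc9, a histone chaperone, -0.36 ± 0.03 lower. HSP90 co-chaperones split into 8 higher and 4 lower of 19 (median 0.06). Cdc37l1, a relative of the kinase adaptor Cdc37, rose by 0.47 ± 0.03 and St13, the HSP70 cofactor HIP, by 0.31 ± 0.03. Stub1, the ubiquitin ligase CHIP, fell by 0.26 ± 0.02. For the TRiC folding ring and its partner prefoldin the counts were 4 higher and 5 lower of 12 (median -0.03), with Pfdn5 at 0.35 ± 0.04 and Tcp1 at -0.62 ± 0.03. The medians of TRiC and prefoldin for 24 h against 6 h and 10 d against 3 d were -0.17 and -0.22 in labelled vector. In labelled α1ACT they were 0.09 and 0.03. The counts of these 4 lists are given as a description, and none was tested against those shares.

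Chaperones of the endoplasmic reticulum and subunits of the proteasome were counted in the same way, beside 34.9% of all genes higher and 36.1% lower. Of 18 endoplasmic reticulum chaperones 13 were higher and 2 lower (median 0.18), with Hspa5, the HSP70 of that compartment known as BiP, at 1806 against 967 CPM. Dnajb9 and Dnajc3, its J-domain partners, rose by 0.59 ± 0.03 and 0.49 ± 0.03. Of 31 proteasome subunits 5 were higher and 21 lower (median -0.15), with Psmb6 at -0.57 ± 0.04 and Psmb5 at -0.55 ± 0.03, both catalytic subunits. For 24 h against 6 h and 10 d against 3 d, the endoplasmic reticulum medians were 0.34 and 0.45 in labelled vector. In labelled α1ACT they were -0.03 and -0.04. The proteasome medians were -0.29 and -0.26 in labelled vector and -0.02 and -0.05 in labelled α1ACT. These lists were counted and not tested as lists. With 3 d and 10 d set against 6 h and 24 h in the same way, 0 of the 31 proteasome subunits were called by edgeR, and 1 of the 18 endoplasmic reticulum chaperones, Dnajb9, at 0.12 ± 0.03.

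**Figure D4:**
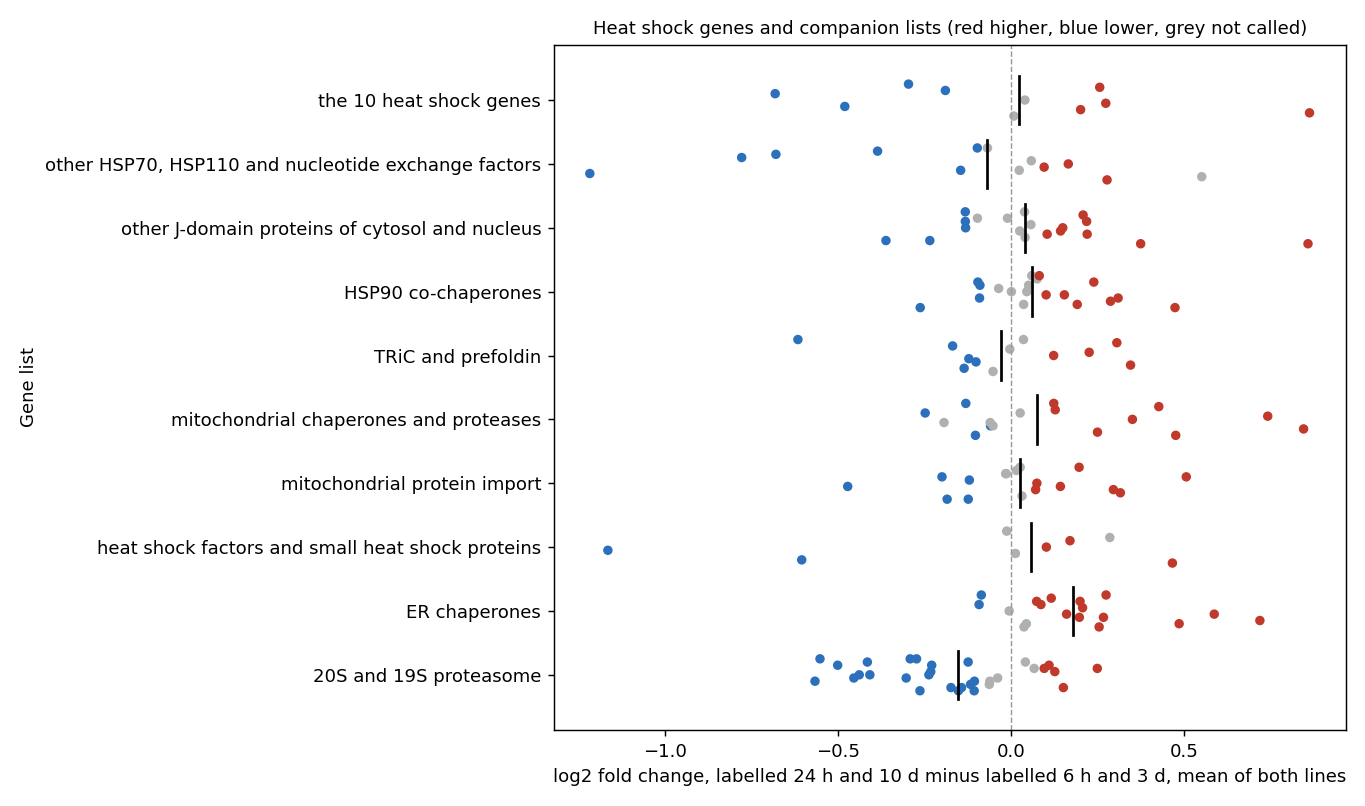
Log2 fold change of the 10 heat shock genes and of 9 companion lists, labelled 24 h and 10 d minus 6 h and 3 d as the mean of both lines; each point is a gene (red higher, blue lower, grey not called by edgeR) and each black bar the median of its list. The proteasome list has 21 of 31 genes lower and the endoplasmic reticulum list 13 of 18 higher, while the 10 heat shock genes spread to both sides.

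Likeness of profile was taken as the root mean square difference of centred log2 group means over the 8 groups, over 9993 other genes. The nearest profile to Hspa9 was Clic4, an intracellular chloride channel protein, at 0.0922 where the profile of Hspa9 itself has a root mean square of 0.532. For Hsp90aa1 it was Plcb4, a phospholipase C, at 0.0723. Hsph1 was nearest to Ppt2 (0.0462), Hspa4 to Zfr (0.0296), Dnajb1 to Lphn2 (0.0380) and Dnaja1 to Snrnp200 (0.0339). Hspa8 was nearest to Tigd5 (0.0426), Hspe1 to Mrpl16 (0.0272) and Hspd1 to Lap3 (0.0201). Hsp90ab1 was nearest to Cct2, a subunit of the TRiC ring, at 0.0276, against its own root mean square of 0.0840. In no case was the nearest gene another of the 10, which are few among the 9993 genes compared. The nearest of the 10 ranked between 88 (Hspd1 for Hsp90ab1) and 2269 (Hspe1 for Hspa4) among these 9993.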

How the data were processed

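RNA of PC12 cells was sequenced in 24 libraries, per the labels' protocols as pairs of 100 bases in 3 lanes from a stranded kit with ribosomal RNA removed. The authors deposited raw read counts per gene symbol, with 5 summary lines that were left out of library sizes. HTSeq 0.5.4p5, TopHat2 2.0.10, FastQC 0.11.2, Picard 1.117 and edgeR without a version are listed for the authors' work, with build rn5, per the submitters' processing notes. Not given in the sources used here are what each did, the annotation and whether counting used strand, so reads of overlapping antisense genes may be mixed.

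Groups were taken from the labels. The members and the companion lists were chosen with earlier results of these data known. Tests used edgeR 4.0.16 (R 4.3.3), its quasi-likelihood F-test, with TMM factors of 0.981 to 1.02, 1 coefficient per group, all 24 libraries in 1 fit (16 residual degrees of freedom) and a common biological coefficient of variation of 5.75%. Low genes were removed with edgeR's filterByExpr on the groups, at its minimum count of 10 and total of 15. Benjamini-Hochberg adjustment ran over the 9994 genes tested, with a threshold of 0.05, and the standard error is the log2 fold change divided by the square root of F. Counting error alone limits genes near the floor of 3 counts, 0.207 to 0.346 CPM. Counts within every pair of replicates of a group were further apart than sampling noise (chi-square per degree of freedom 2.00 to 11.7 over genes with at least 20 counts), so each library was counted. Named were all 10 members and, per companion list, up to 3 called genes in each direction with the largest change and a mean of at least 5 CPM. Alternatives were DESeq2 1.42.0, RLE factors, library sizes alone, no filter, the replicate number as a block, only the 6 libraries compared, and leaving out libraries. Promoter windows and pseudogene names came from RefSeq tables of assembly GRCr8, used for names and sequences only, and no rn5 coordinates are given.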

Additional observations from a re-analysis of the deposited data

Results flagged for a closer look

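For 5 of the 10 genes the difference between the labelled lines itself differed over the 4 labelled times by edgeR's joint test of line by time. The same test called 57.7% of all 9994 genes tested. For Hsph1 (adjusted p = 4.90e-11) the line difference was positive at 6 h and 3 d and negative at 24 h and 10 d. For Hsp90aa1 (adjusted p = 1.61e-06) α1ACT was the higher by 0.70 at 24 h and 0.46 at 10 d on the log2 scale, while no difference was called at 6 h or 3 d in the fit of all 24 libraries. For Hspa9 (adjusted p = 5.98e-05) the line difference ran from -0.21 at 6 h, not called, to -0.92 at 10 d. For Hspa4 (adjusted p = 0.00334) it ran from -0.16 at 6 h to -0.44 at 10 d. For Hspa8 (adjusted p = 0.00563) it was -0.52 at 24 h and 0.14, not called, at 6 h. By file name the same test asks whether the changes from 6 h to 24 h and from 3 d to 10 d, in the lines named P and Q11, were equal to each other.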

How the results depend on the processing

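No called difference of the 10 genes changed sign under any alternative run, of 75 called among 150. In the step of labelled vector from 24 h to 10 d, the count of called genes was 2 with no filter on low counts (Hsp90aa1 added, adjusted p = 0.0472) and 0 with only the 6 libraries compared (Hspa9, 0.0595). With other settings of the fit, 8 of 430 called values did not pass. Of 119 values from the 20 differences not called and of at least 0.1 on the log2 scale, 6 passed. Differences not called and under 0.1 were left out of these 119. Those lost were Hspe1 at 6 h (RLE factors 0.0669, DESeq2 0.0701, 6 libraries 0.0661), Hsp90ab1 at 3 d (RLE factors 0.0502), and, with 6 libraries, Dnaja1 at 24 h (0.107), Hsp90ab1 at 10 d (0.123), Hspa9 in the step above, and Hsp90aa1 from 6 h to 24 h in α1ACT (0.0770). Hspa9 at 6 h was gained with no filter (0.0444), DESeq2 (0.0451) and 6 libraries (0.00484), and Hsp90aa1 at 6 h with 6 libraries (-0.14, 0.0357).

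Leaving out libraries, counts ranged from 1 to 5 for the line difference at 6 h, 5 to 7 at 24 h, 2 to 4 at 3 d, 6 to 9 at 10 d and 6 to 9 for their mean. They were 0 to 2 for vector from 24 h to 10 d, 6 to 7 for vector from 6 h to 24 h, 5 to 7 from 3 d to 10 d, 5 to 8 for α1ACT from 6 h to 24 h and 6 to 8 from 3 d to 10 d. For 3 d and 10 d against 6 h and 24 h they were 0 to 4, for time in vector 6 to 9, for time in α1ACT 7 to 9, and for line by time 3 to 7. For 24 h and 10 d against 6 h and 3 d the count was 8 each time, and for the 3 comparisons with no call it was 0. Without replicate 1 or 3 of every group, the count in vector from 24 h to 10 d and in 3 d and 10 d against 6 h and 24 h was 0.

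Replicate numbers recur across groups, and same-numbered libraries had correlated deviations (over 0.1 in all 3) in 1 of 28 pairs of groups, with a range of -0.0791 to 0.342, so they were not taken to pair the samples. With the replicate number as a block, 9 genes were called for α1ACT from 3 d to 10 d (8 without), Hspd1 being added at 0.11 (adjusted p = 0.0423). Line by time then had 6 calls (5 without) and time in α1ACT 9 (8 without), and the other counts of calls were the same. Depth limits Hspa8 most, at 200 to 467 counts per library. Of the 75 differences not called, 55 were under 0.1 on the log2 scale, and 30 of these changed sign in some setting, none passing with the other sign. Passes of the 55 with the same sign enter the counts of called genes but were not listed singly.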
